A study of Mus musculus with 6 samples.

Results

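The AP-1 family of transcription factors was followed in BM erythroblasts of P38α+/- and P38α-/- mice during recovery from anemia. All non-control probes whose gene name on the array was Jun, Junb, Jund, Fos, Fosb, Fosl1, Fosl2, Atf3, Batf or Batf3 were taken, which gave 11 probes of 10 genes out of 55681 probes of 34761 genes. The control mice were Mx1-Cre/P38α fl/+ (P38α+/-) and the knockout mice Mx1-Cre/P38α fl/fl (P38α-/-), both on a C57Bl/6 background, so the controls had also lost 1 copy of P38α. Male and female mice of 6 to 8 weeks of age in both groups received 3 injections of 300 µg PolyIC, which switches on Mx1-Cre in interferon-responsive cells, those of the hematopoietic system among them, and rested for 6 weeks. Anemia was then induced with 100 mg per kg of the hemolytic agent phenylhydrazine (PHZ), given once. On day 4, CD71highTer119+ erythroblasts were sorted from the BM of 3 mice of each genotype. The RNA of each mouse (10 ng) was amplified with Cy3 label and read on its own Agilent array.

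AP-1 is a dimer of basic leucine zipper proteins. Jun proteins pair with one another or with Fos proteins, Fos proteins need a Jun partner, and ATF3 and the BATF proteins form further dimers with Jun proteins. The dimers bind the TGACTCA element and related sites near genes of growth, survival, stress and inflammation. Fos, Fosb, Junb and Atf3 are textbook immediate early genes, whose transcripts appear within minutes of a stimulus and decay quickly, whereas Jund is made steadily in many tissues. JNK phosphorylates and activates c-Jun, and P38 phosphorylates ATF2 and the ternary complex factors that act on the Fos promoter. Transcript levels on these arrays do not show phosphorylation or dimer formation.

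Mapk14, the gene of P38α, was examined first. On the log2 scale described next, its brighter probe read 0.33, 0.58 and 0.61 for P38α+/- mice, and 0.76, 1.19 and 1.20 for the mice labelled P38α-/-. The other Mapk14 probe differed by 0.01 (SE 0.42). Both probes thus failed to read lower under the P38α-/- label. Whether they lie inside the deleted part of the gene was not tested, so this check can neither bear out nor contradict the labels. Every direction below rests on those labels.

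Values are log2 of the background-corrected signal minus the 75th percentile of the same array, taken over the 15540 probes that the scanner software marked as well above background on each of the 6 arrays. Testing required detection on all 3 arrays of a genotype, and 18785 probes (14158 genes) met this. The share of probes well above background ran from 36.9% to 53.1% in P38α+/- arrays and from 28.9% to 35.9% in P38α-/- arrays. The median tested probe was 0.16 lower in P38α-/- arrays on this scale, so differences are also given relative to it. Detection therefore limited the number of members that could be compared, and levels of different probes were not ranked against one another. Ratios between probes are used only for their shift between genotypes.

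Jund and Jun, whose probes carried the higher readings in P38α-/- arrays, and Fos and Fosb, whose probes carried the lower ones, are the members the results turn on. The first 30 bases of their probes as given in the array files are shown in lower case.

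Jund probe: ttttgctacgagtccacattcctgttccgt

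Jun probe: atgctaacgcagcagttgcaaacgttttga

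Fos probe: ggactttattttccagtagatagaaatcaa

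Fosb probe: actgccgaccacaattcattgactccatag

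The 250 bases before the annotated start of the same genes, from RefSeq on GRCm38.p6, are shown next. The coordinates are chr8:70697489-70697738, plus strand, for Jund, chr4:95052223-95052472, minus strand, for Jun, chr12:85473640-85473889, plus strand, for Fos and chr7:19310046-19310295, minus strand, for Fosb. Capitals mark the TATA box, the core of the cAMP response element, and the pair of AP-1-like sites known from the Jun promoter, all spelled out after the sequences.

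Jund: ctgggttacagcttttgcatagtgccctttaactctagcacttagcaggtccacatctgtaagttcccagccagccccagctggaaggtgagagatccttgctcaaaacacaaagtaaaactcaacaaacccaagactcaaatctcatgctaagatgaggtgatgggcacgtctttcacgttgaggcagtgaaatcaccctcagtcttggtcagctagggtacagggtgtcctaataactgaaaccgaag

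Jun: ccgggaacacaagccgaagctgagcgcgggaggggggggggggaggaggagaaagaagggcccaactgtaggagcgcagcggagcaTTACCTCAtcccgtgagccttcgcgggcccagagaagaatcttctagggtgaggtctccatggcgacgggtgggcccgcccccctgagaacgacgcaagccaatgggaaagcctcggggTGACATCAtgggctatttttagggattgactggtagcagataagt

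Fos: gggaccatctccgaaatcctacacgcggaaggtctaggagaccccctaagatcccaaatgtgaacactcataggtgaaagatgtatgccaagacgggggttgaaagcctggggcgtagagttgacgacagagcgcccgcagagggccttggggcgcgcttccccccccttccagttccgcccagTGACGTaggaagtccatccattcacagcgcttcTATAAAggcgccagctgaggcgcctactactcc

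Fosb: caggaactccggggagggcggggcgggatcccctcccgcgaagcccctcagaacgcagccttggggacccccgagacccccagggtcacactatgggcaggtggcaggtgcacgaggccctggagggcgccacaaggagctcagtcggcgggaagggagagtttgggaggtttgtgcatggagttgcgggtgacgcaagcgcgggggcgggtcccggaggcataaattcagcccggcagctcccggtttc

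Of the 10 members, 9 had an entry in the RefSeq promoter table and Fosl1 had none. Each motif was searched on both strands in the 250 bases before the start, in the 9 members and in all 32851 promoters of the table. TGACATCA was found in 1 member, Jun, from 45 to 38 bases before the start, and in 2.93% of all promoters. TTACCTCA was also found in Jun alone among the members, from 164 to 157 bases before the start, and in 0.728% of all promoters. TGACGT, the core of the cAMP response element, was found in 3 members, Fos, Batf and Atf3, and in 6.47% of all promoters, counting also those in which it is part of the full element TGACGTCA. In Fos it lay from 66 to 61 bases before the start and the TATA box from 33 to 28 bases before it. TATAAA, the TATA box, was found in 1 of the 9 members and in 12.4% of all promoters. The full elements TGACTCA and TGACGTCA were in 0 of the 9 members and in 4.46% and 1.55% of all promoters, and the CArG box that serum response factor binds was in 0 members and in 1.47%. Sites beyond these 250 bases were not searched, so none of these elements is shown to be missing from a gene. GGGCGG, the GC box, was in 7 of the 9 members and in 32.7% of all promoters, and CCAAT was in 2, Jun and Junb, and in 33.8%. Neither is in capitals above. The Jund window held none of the 9 motifs and was 47.6% G or C, against 61.2% for Jun, 58.4% for Fos, 68.8% for Fosb and a median of 52.4% over all promoters. Such matches describe the letters of these windows and say nothing about binding in erythroblasts.

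Jund and Jun read higher in the P38α-/- arrays, whereas Fos, Fosb, Fosl2 and Batf read lower, each with a fold above 2 on the scale used here. The sizes for Fosl2 and Batf depended on the processing, with differences of -0.30 and -0.68 after quantile normalization, -0.36 and -0.39 with normexp, and -0.44 and -0.54 in the authors' normalized values, all below 2-fold. Of the 10 genes, 6 could be tested. With limma and Benjamini-Hochberg adjustment over all tested probes, 0 of these 6 passed the threshold of 2-fold and an adjusted p no higher than 0.05. Of all 14158 genes 27 passed it (0.191%), 21 of them higher (0.148%) and 6 lower (0.0424%) in P38α-/- arrays. The methods' t-test on the same values also called 0 members. With the same limits and no adjustment, limma passed all 6 tested members, 2 of them higher and 4 lower in P38α-/- arrays, and the methods' t-test passed 3. Over all tested genes the limma share was 10.8%, with 1.41% higher and 9.37% lower. The 4 lower members were tested only because they were well above background in every P38α+/- array, a filter that favours a lower reading in the other genotype, so their count is not given as support. The outcome depended on scaling and weighting. With the percentile taken over all probes, limma called 4 members at the adjusted threshold, 2 higher and 2 lower, beside 5.17% of all genes (2.87% higher). With array weights it called 5, 1 higher and 4 lower, beside 11.8% of all genes (1.7% higher).

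**Figure D1:**
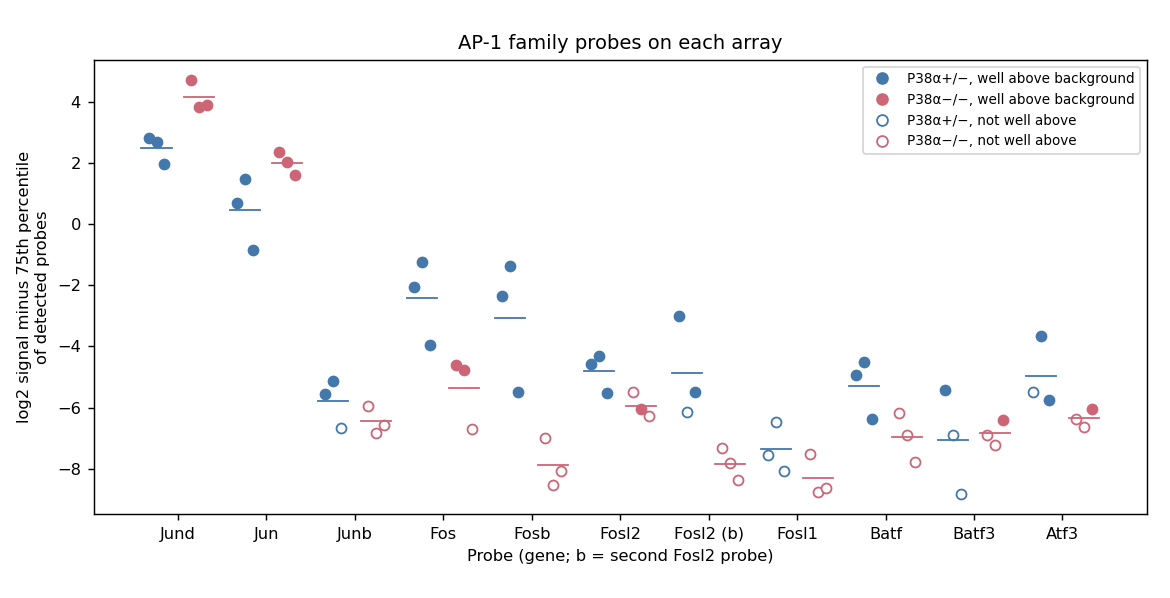
Signal of the 11 AP-1 family probes on each of the 6 arrays. The vertical axis is log2 signal minus the array's 75th percentile, blue points are P38α+/- and red points P38α-/- arrays in replicate order from left to right, open points are readings not well above background and bars are genotype means (n = 3 each). The red points of Jund and Jun lie above all blue points and are all filled, whereas the red points of Fosb, the second Fosl2 probe, Junb and Batf are all open.

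Jund encodes the Jun protein that is present in most resting cells and that can restrain proliferation. Its probe, at chr8:73224436-73224495 on the plus strand of mm9, read 2.82, 2.68 and 1.97 for P38α+/- mice and 4.71, 3.86 and 3.90 in the P38α-/- arrays. The genotypes did not overlap, and the lowest P38α-/- reading was above the highest P38α+/- reading. Before scaling, the processed signals were 5708, 8397 and 5854 against 19473, 22791 and 20346 intensity units, so the separation was visible without any normalization. The difference was 1.66 (SE 0.33, 95% interval 0.87 to 2.46), a 3.17-fold higher signal, and 1.82 relative to the median probe. With limma its adjusted p was 0.0959, short of the threshold. Ordered by their rise, Jund ranked 75 of the 18785 tested probes.

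Jun encodes c-Jun, the AP-1 subunit activated by JNK. Its probe, at chr4:94716928-94716987 on the minus strand, read 0.71, 1.48 and -0.83 for P38α+/- mice and 2.38, 2.04 and 1.61 in the P38α-/- arrays. The genotypes did not overlap either, but the gap between P38α+/- replicate 2 and P38α-/- replicate 3 was small beside the spread among P38α+/- arrays (SD 1.18, n = 3). The difference was 1.56 (SE 0.58, 95% interval 0.15 to 2.96), or 1.72 relative to the median probe, with an adjusted p of 0.205 in limma. Jun ranked 90 among the 18785 tested probes by its rise. Jund and Jun were the 2 members well above background on all 6 arrays. Probes whose genotypes did not overlap made up 6.93% of all tested probes in the higher direction and 20.8% in the lower.

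Junb encodes the Jun protein that is itself an immediate early product and that limits myeloid proliferation. Its probe, at chr8:87501881-87501940 on the minus strand, was detected above background on 2 of 3 P38α+/- and 0 of 3 P38α-/- arrays and was not tested. It read -5.54, -5.14 and -6.67 against -5.95, -6.84 and -6.57, and the genotypes overlapped. No fold is given, since P38α+/- replicate 3 was not detected either.

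Fos encodes c-Fos, the founding immediate early partner of c-Jun. Its probe, at chr12:86817900-86817959 on the plus strand, was printed at 10 spots of each array, which makes it and Batf the members with a measure of spot error. It read -2.04, -1.25 and -3.95 for P38α+/- mice and -4.62, -4.79 and -6.72 in the P38α-/- arrays. No P38α-/- reading reached the lowest P38α+/- reading, which belonged to replicate 3. The difference was -2.96 (SE 0.84, 95% interval -4.98 to -0.93), or -2.80 relative to the median probe, with an adjusted p of 0.147 in limma. The coefficient of variation over the spots of an array was 5.26% to 22.2%, a technical spread that does not include that between mice (SD 1.39 in P38α+/- and 1.17 in P38α-/-). In P38α-/- replicate 3 only 1 of the 10 spots was well above background, so that reading is near the limit of detection.

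Fosb encodes FosB, which shares the immediate early kinetics of c-Fos. Its single probe, at chr7:19888168-19888227 on the minus strand, read -2.36, -1.38 and -5.49 for P38α+/- mice and -6.98, -8.54 and -8.08 in the P38α-/- arrays. The processed signals were 158, 503 and 33.2 intensity units against 5.89, 4.24 and 5.02. The genotypes did not overlap, and all 3 P38α-/- readings were at background. On this scale the mean Fosb signal was therefore at least 9.66-fold lower in the P38α-/- arrays, a bound set by the dimmest probes those arrays could detect. The bound does not hold for each mouse or under other processing, where normexp gave a difference of -1.69. The fitted Fosb difference of -4.79 (SE 1.05, adjusted p = 0.106 in limma) was the lowest of all 18785 tested probes, but its size rests on readings below detection. Among P38α+/- mice, replicate 3 read well below the others.

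Fosl2 encodes Fra-2, a Fos protein without a strong activation domain, and was read by 2 probes. The probe at chr5:32460076-32460135 read -4.56, -4.32 and -5.54 for P38α+/- mice and -5.48, -6.06 and -6.26 in the P38α-/- arrays. The genotypes overlapped at P38α-/- replicate 1 and P38α+/- replicate 3. Its difference was -1.13 (SE 0.37, adjusted p = 0.173 in limma), or -0.97 relative to the median probe. The probe at chr5:32455088-32455147 was detected above background on 2 of 3 P38α+/- and 0 of 3 P38α-/- arrays and was not tested, and it read -2.99, -6.15 and -5.48 against -7.34, -7.82 and -8.39. The second probe did not overlap between genotypes, and no fold is given for it, since P38α+/- replicate 2 was not detected either. Fosl1, which encodes Fra-1, was at background on each of the 6 arrays, and no fold is given for it.

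Batf encodes a small AP-1 protein of lymphocytes and myeloid cells that pairs with Jun proteins. Its probe, at chr12:87049872-87049929 and printed at 10 spots, read -4.95, -4.52 and -6.37 for P38α+/- mice and -6.18, -6.91 and -7.78 in the P38α-/- arrays, so the genotypes overlapped. In P38α+/- replicate 3 exactly 5 of its 10 spots were well above background, which was the least that counted as detected. Its difference was -1.67 (SE 0.59, adjusted p = 0.189 in limma). With the P38α-/- readings raised to the lowest detectable signal, the genotype means on this scale differed 2.09-fold. That is no minimum across settings, since normexp gave a Batf difference of -0.39. Atf3, a stress-induced repressor that also binds AP-1 sites, was detected on 2 of 3 P38α+/- arrays and 1 of 3 P38α-/- arrays. It read -5.49, -3.65 and -5.75 against -6.37, -6.63 and -6.04 and was not tested. Batf3, known for its role in dendritic cells, was detected on 1 of 3 arrays of each genotype, and its readings overlapped.

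For a single probe the exact two-sided permutation of 3 against 3 arrays cannot give a p below 0.10. That value was reached by Jund, Jun, Fos, Fosb, the second Fosl2 probe and Atf3, the 6 probes whose genotypes did not overlap. Of all tested probes, 27.7% did not overlap either, 6.93% in the higher and 20.8% in the lower direction. The second Fosl2 probe and Atf3 were not tested and were detected on 0 and 1 of 3 P38α-/- arrays. The direction was also read within each pair of mice of the same replicate number. Jund was higher in the P38α-/- mouse of each pair, by 1.89, 1.17 and 1.93, and Jun by 1.67, 0.55 and 2.45. Fos was lower in all 3 pairs, with differences of -2.58, -3.53 and -2.76, and so was Fosb, with -4.62, -7.16 and -2.60. Fosl2 (both probes), Batf and Atf3 were likewise lower in 3 of 3 pairs, whereas Junb, Fosl1 and Batf3 were higher in 1 of 3. For Fosb, Fosl2, Batf and Atf3 the P38α-/- readings were mostly or wholly at background, so their pair directions are not given as support. Fos was also tested only through P38α+/- detection, and 1 of its 10 spots was well above background in P38α-/- replicate 3. Its pair directions are not given as support either. The share of all probes with the same direction in 3 pairs was not computed.

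**Figure D2:**
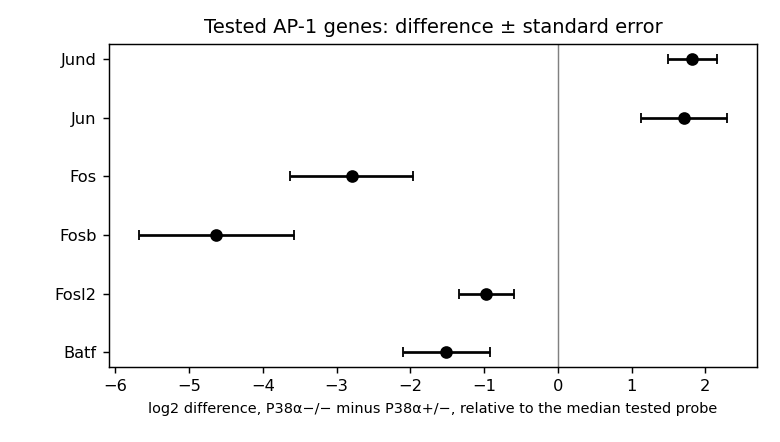
Difference between the genotypes for the 6 tested AP-1 genes. The horizontal axis is the log2 difference, P38α-/- minus P38α+/-, relative to the median tested probe, points are limma estimates and bars are standard errors (n = 3 arrays per genotype). Jund at 1.82 and Jun at 1.72 lie to the right of 0 and the other 4 genes to the left, and the Fosb and Batf points rest on P38α-/- readings not well above background.

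The contrast of Jund and Jun with Fos does not depend on the constant subtracted from each array, which cancels in a ratio within an array. The log2 ratio of Jund to Fos was 4.86, 3.93 and 5.93 in P38α+/- arrays and 9.32, 8.64 and 10.6 in P38α-/- arrays. That of Jun to Fos lay between 2.73 and 3.12 in P38α+/- and between 6.82 and 8.33 in P38α-/- arrays. The genotypes did not overlap in either ratio. That follows from the separation of each of these genes on the scale used here, so it is not given as further support. The shift between genotype means was 4.62 for Jund to Fos and 4.51 for Jun to Fos. The highest values, 10.6 and 8.33, belong to P38α-/- replicate 3, where 1 of 10 Fos spots was well above background. Background handling does not cancel, and with normexp the genotype differences were -1.60 for Fos, 1.67 for Jund and 1.58 for Jun. Fosb was left out of these ratios, since its P38α-/- readings were at background. The ratio of Jund to Jun shifted by 0.11, and the genotypes overlapped in it. Ratios within an array show that the genes changed unequally, not which of them changed.

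Across the 6 arrays, Fos, Fosb, Fosl2 and Batf ran nearly parallel, with Pearson correlations from 0.93 to 0.99 between every pair of them. These 4 were tested only through P38α+/- detection. Fosb and Batf were detected on 0 of 3 P38α-/- arrays, Fosl2 on 1 and Fos on 2, so a shared fall to background enters these correlations. Jund and Jun correlated at 0.88. Jund correlated at -0.57 with Fos and Jun at -0.24, and all these values are descriptions over 6 arrays that share the genotype difference. Of all other tested genes, Fis1 (r = 0.997), Fam193b (0.996), Arl3 (0.993), Pnkd (0.993) and R3hdm4 (0.992) were most like Jund over the 6 arrays. R3hdm4 was higher by 1.36 (SE 0.30, adjusted p = 0.107 in limma), and the others by 0.34 to 0.69.

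Neutrophil marker signal was lower in P38α-/- arrays along with the Fos members. All 12 neutrophil markers were tested, and 12 of 12 lay below the median probe in the P38α-/- arrays. In the lower direction 11 passed the unadjusted p and fold, against 9.37% of all tested genes, and none passed the adjusted threshold in limma. In 10 the genotypes did not overlap, against 20.8% of all tested probes in the lower direction. The largest differences relative to the median probe were those of Mpo, the myeloperoxidase of granule precursors (-1.90), Elane, which encodes neutrophil elastase (-1.69), the chemokine receptor gene Cxcr2 (-1.63) and Retnlg (-1.60). The log2 of their summed signal was 7.51, 8.16 and 6.79 in P38α+/- arrays and 6.36, 6.38 and 5.89 in P38α-/- arrays. P38α+/- replicate 3, which had the lowest Fos and Fosb of its group, also had the lowest neutrophil sum of its group. Over the 6 arrays this sum correlated with Fos at 0.98, Fosb at 0.96, Fosl2 at 0.96 and Batf at 0.95, and with Jun at -0.25 and Jund at -0.61. The P38α-/- readings of Fosb and Batf are at background, and so are most of those of Fosl2. All these values are descriptions over 6 arrays that share the genotype difference. In such bulk samples, fewer cells of a type and less RNA per cell cannot be told apart, and the part of neutrophil RNA in the lower Fos readings was not tested.

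Expressed against the neutrophil sum of the same array, Fos gave these values. It read -9.55, -9.41 and -10.7 in P38α+/- arrays and -11.0, -11.2 and -12.6 in P38α-/- arrays, a shift of -1.68 between the means without overlap. The lowest of them, P38α-/- replicate 3, is the reading with 1 of 10 Fos spots above background. Fosl2 shifted by 0.15 and overlapped, although only 1 of its 3 P38α-/- readings was detected. Jun and Jund shifted by 2.83 and 2.94.

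Markers of other cell types were read in the same way. Beside their counts stand the shares of all genes past the unadjusted p and fold, 1.41% higher and 9.37% lower. Of 17 erythroid markers, 16 were tested, none passed the unadjusted p and fold or the adjusted threshold in limma, and their summed signal ran from 10.0 to 10.6 in both genotypes, so the sorted cells carried the erythroid transcripts of their label. Of 10 B cell markers, 5 were tested and 2 passed the unadjusted p and fold in the lower direction, Ebf1 (at least 3.79-fold lower) and Ms4a1 (at least 3.20-fold lower). Both were well above background on no P38α-/- array and were tested only through P38α+/- detection, so their count is not given as support. Of 10 T or NK cell markers, 5 were tested and Nkg7 and Gzma passed in the lower direction, Gzma being tested only through P38α+/- detection. Of 12 monocyte or macrophage markers, 7 were tested and none passed, but 7 of 7 lay below the median probe, with a median of -0.75 relative to it. Csf1r, the macrophage growth factor receptor gene, did not overlap between genotypes, which held in the lower direction for 20.8% of all tested probes. Of 10 megakaryocyte or platelet markers, 6 were tested and 4 of these lay above the median probe, with a list median of 0.44. Pf4 passed in the lower direction, with -1.26 relative to the median probe. The summed B cell signal was -1.73 to 0.81 in P38α+/- and -2.21 to -0.58 in P38α-/- arrays, and the part of these cells in the AP-1 readings was not tested.

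Partners and regulators of AP-1 lay near the median probe as lists. The counts that follow stand beside the shares of all genes past the unadjusted p and fold, which were 1.41% higher and 9.37% lower. Of 25 further leucine zipper genes that pair with AP-1 proteins or share their sites, 19 were tested, none passed in the higher direction and 4 passed the unadjusted p and fold in the lower direction. These were Jdp2, a Jun-dimerising repressor (-1.27 relative to the median probe), Cebpb, which drives myeloid genes (-1.25), Atf5 (-1.07) and Nfe2l1 (-0.93). None of the 25 passed the adjusted threshold in limma, and the median of the 19 lay at 0.00. Of 20 regulators of AP-1, such as the MAP kinases, the ternary complex factors and the ubiquitin ligases of c-Jun, 16 were tested and none passed either threshold, with a median of 0.04. Their differences relative to the median probe ran from -1.26 for Elk3 (SE 1.06) to 0.41 for Det1. Of 24 textbook AP-1 targets, 11 were tested, none passed higher and 3 passed lower at the unadjusted p and fold. These were the cytokine gene Tnf (at least 2.12-fold lower), Hmox1, which encodes the heme-degrading enzyme heme oxygenase 1 (-1.63), and Plaur, the urokinase receptor gene (-1.43), and the list's median was 0.15. Tnf was tested only through its detection in P38α+/- arrays.

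Of 20 immediate early genes outside the AP-1 family, 14 were tested, 1 passed the unadjusted p and fold in the higher direction and 6 in the lower, and none passed the adjusted threshold in limma, where all genes gave 1.41% higher and 9.37% lower. Of the 6 lower genes, 5 were tested only through their detection in P38α+/- arrays, so their count is not given as support. The largest differences were those of Rhob (at least 3.63-fold lower), Csrnp1 (at least 3.58-fold lower), the nuclear receptor gene Nr4a1 (-2.45 relative to the median probe) and Klf4 (-2.30). The higher one, named after its value was seen, was Ier3 (1.56). The list's median was -0.25, and as with Fos these genes were tested beside a lower neutrophil signal whose part in them was not tested.

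**Figure D3:**
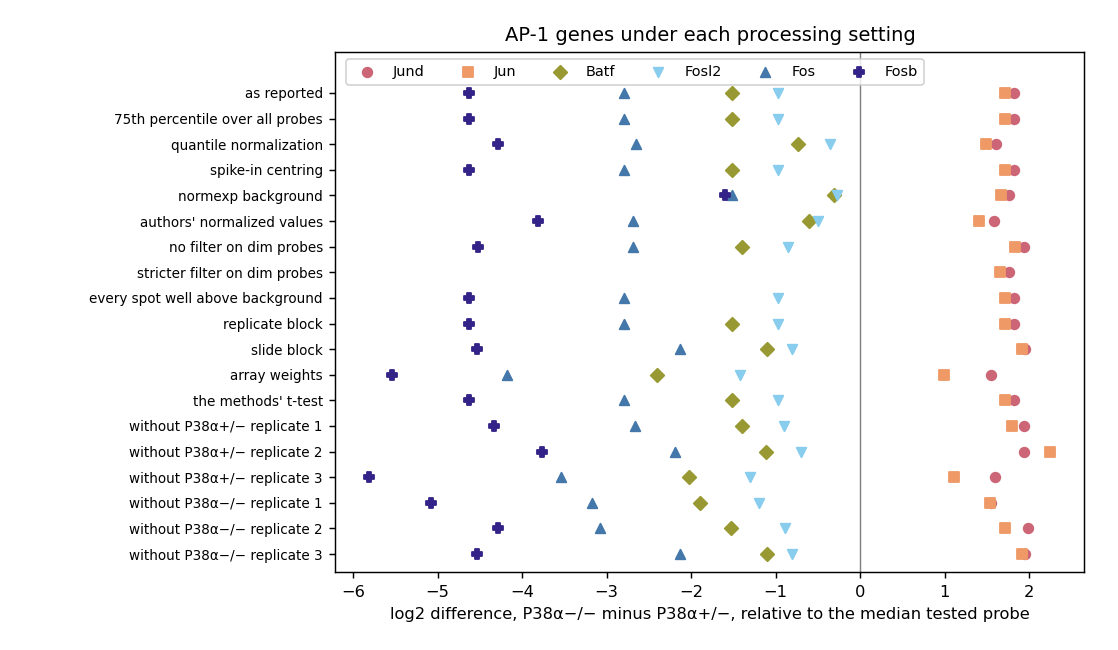
Differences of the 6 tested AP-1 genes under each processing setting. The horizontal axis is the log2 difference, P38α-/- minus P38α+/-, relative to the median tested probe of that setting, and each row is 1 setting, with the values reported here at the top. Jund and Jun stay to the right of 0 and the other 4 genes to the left in every setting that tested them, while Fosb moves between -5.81 and -1.61.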

How the data were processed

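RNA of sorted CD71highTer119+ BM erythroblasts from 3 P38α+/- and 3 P38α-/- mice was measured on 1-colour arrays. The authors deposited the scanner intensity of each spot as written by Agilent Feature Extraction, background-subtracted but not normalized across arrays. A second deposited table holds linear normalized intensities, and how they were made is not given in the sources used here. Per the file headers, other columns are spot quality flags. Group and replicate came from the sample labels (0 columns unassigned). The array files give probe positions in mm9. Gene symbols came from the accession for 27509 probes, a current symbol for 3549, a synonym for 404 and the file's own name for 24219.

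Spots marked as outliers were left out (4 of the members' spots) and spots of one probe averaged. From each log2 signal, the 75th percentile of that array over probes detected on all 6 arrays was subtracted. A probe counted as well above background when at least 0.5 of its spots were. Two-sided tests used lmFit and eBayes of limma 3.58.1 under R 4.3.3. Adjustment was by Benjamini-Hochberg across 18785 probes, a gene counting once if any probe passed. The code was tested on simulated data. A bound sets a bright group's mean against the lowest detectable signal of the arrays of the dim group, or the dim probe's own if higher. It applies to group means on the scale used here, not to each mouse, and other processing can give smaller differences. Sequences came from RefSeq tables (GRCm38.p6). Their proteins were not analysed here, and probes were not placed in exons or UTRs.

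The members and lists were chosen with earlier results of these data known. The text gives every member and, per list, up to 4 genes with the largest difference among those past the unadjusted p and fold, by their brightest tested probe, with the 5 genes most correlated with Jund. After removal of genotype means, arrays sharing a replicate number correlated at 0.54, 0.31 and 0.42, and other arrays at most at 0.18. There were 3 such correlations above 0.1, and the design text deposited with the series speaks of pairs of mice. The numbers were therefore taken to pair the samples. Standard errors, intervals and p-values in the results come from the unpaired fit, and the fit with the replicate block is an alternative. The slide of P38α-/- replicate 3 held no other array, so slide and that array cannot be told apart. In the normalized table, the column of P38α-/- replicate 2 had a Spearman correlation of 0.897 with its scanner signal, against 1.00 for the other 5. Precision is limited by the number of arrays, and each array is 1 mouse.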

Additional observations from a re-analysis of the deposited data

How the results depend on the processing

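All 6 tested AP-1 genes kept their direction in each alternative that tested them. The count of members past the adjusted threshold was 0 as reported. It was 4 with the 75th percentile over all probes (Jund, Jun, Fos and Fosb), 1 with spike-in centring (Fosb) and 5 with array weights (all tested members but Jun). Leaving out 1 array gave 0 to 1, the 1 being Fosb without P38α+/- replicate 3 (adjusted p = 0.0444 in limma, against 1.44e-05 to 0.826 over all its alternatives). The count at an unadjusted p and the fold was 6 as reported, 2 under the stricter filter on dim probes, which tested Jun and Jund alone, 3 with the methods' t-test, and 3 to 5 with 1 array left out, the lowest without P38α-/- replicate 2. With the replicate number as a block, 0 members passed the adjusted threshold and 6 the unadjusted one, so the block changed no member's call. The standard error fell from 0.84 to 0.24 for Fos and from 0.33 to 0.21 for Jund. Adjusted p in limma with the block ran from 0.0554 for Fos to 0.114 for Jun. Over all genes, 21 of 27 calls were higher in P38α-/- arrays as reported, against 407 of 732 with the percentile over all probes, 14 of 15 with quantile normalization, 2 of 8 with spike-in centring, 12 of 12 with normexp, 11 of 11 with the authors' normalized values and 241 of 1674 with array weights. The count was 62 with the block, 15 of them higher, 64 under the stricter filter, 2 with the methods' t-test, 0 with no filter or a slide block, and 0 to 98 with 1 array left out, the 98 without P38α+/- replicate 3, 35 of them higher. The median probe stood at 0.32 with the percentile over all probes, against -0.16 as reported. Normexp gave the smallest Fosb difference, -1.69. The causes of these changes were not tested. The alternative that asked for every spot to be well above background was chosen after seeing the data and left Batf untested. Signal over background limits Junb, Fosl1, Atf3 and Batf3, which had no test.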
